A study of Mus musculus with 4 samples.

Results

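CatSper is the calcium channel of the sperm flagellum. Its pore is formed by the proteins of Catsper1, Catsper2, Catsper3 and Catsper4, and auxiliary transmembrane subunits named beta, gamma and delta, encoded by Catsperb, Catsperg1, Catsperg2 and Catsperd, surround the pore. Calcium entry through the channel drives hyperactivated motility, the vigorous tail beat that sperm need to fertilise an egg. RFX2 belongs to the RFX transcription factors, which recognise an inverted repeat called the X-box and are known regulators of genes for building cilia and flagella.

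The 8 CatSper genes named above were examined, of 21938 protein-coding genes annotated on the assembled chromosomes. They were chosen by name and not by a measured value, although earlier results of these data were known. A promoter was defined as 1000 bp upstream to 500 bp downstream of any annotated transcription start site (TSS) on genome build GRCm38. RFX2 binding was mapped by ChIP-seq, the sequencing of DNA that an antibody pulls down with the bound protein, with 2 RFX2_WT replicates and 2 input_WT controls. All 4 samples were decapsulated testis of wild type mice on a mixed C57BL/6, 129/Sv and FVB/N background, labelled as postnatal day 29 to 30, while the study's text describes germ cells of younger animals. The peak lists do not settle the age. Whole testis holds somatic and germ cells, and a peak list does not tell in which of them a site was bound.

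The list of replicate 1 holds 39825 peaks and that of replicate 2 holds 21274. Each peak carries a score on a −log10 scale, and whether a p or a q stands behind it is not given in the list. Median scores were 4.47 and 5.06 and the highest were 475 and 266. A combined list holds 2726 peaks, which range from 43.2 to 493 in −log10 p and from 2.85 to 70.5 in fold enrichment. It was met by peaks of both replicates almost throughout, 100% in replicate 1 and 99.9% in replicate 2. The study's methods describe keeping peaks that were reproducible between the replicates. The number of such peaks given there differs slightly from 2726, and how this list relates to that set is not stated. Such a selection would itself produce the overlap. Since the combined list appears to rest on the reads of both replicates, it was not counted as an independent replicate. Read depths are unknown, and no list exists for the inputs. A peak score therefore carries no error of its own, and whether the other replicate had a peak at the same place is the measure of reproducibility used throughout. No p-value was computed, since the design holds no contrast between groups of ChIP samples.

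RFX2 peaks at CatSper promoters were found at the gamma subunit genes and at none of the other 6. In replicate 1, 2 of the 8 genes (25.0%) had a promoter peak, Catsperg1 and Catsperg2, against 14.0% of all protein-coding genes. In replicate 2, Catsperg1 alone had a promoter peak (12.5%, against 11.3% of all genes). Catsperg1 was also the sole CatSper gene with a promoter peak in both replicates (12.5%, against 9.05%). With the narrower promoter of −500 to +50, a window that the study also used, the count in replicate 2 and in both replicates was 0. In replicate 1 it stayed at 2, and the share of all genes in that window was not computed. None of the 8 had a promoter peak in the combined list, where 5.26% of all genes had one. With 8 genes, 1 gene moves a share by 12.5 percentage points, so these shares lie near those of all genes.

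Catsperg1, a gamma subunit gene (ENSMUSG00000049676.14), lies on the minus strand at chr7:29181321-29214035 and has 13 annotated TSSs, of which the 5′-most of a protein-coding transcript is at position 29214033. Positions below are given relative to that coding TSS. Replicate 1 had 2 separate peaks in this promoter, 337 bp apart. The first, at chr7:29213810-29214314, covered the TSS with a score of 21.2 (rank 4205 of 39825) and was 505 bp wide. The second, at chr7:29214652-29215263, spanned −1230 to −619 with a score of 42.0 (rank 2140) and was 612 bp wide. The upstream peak was therefore the higher of the pair in replicate 1.

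Replicate 2 also had 2 peaks at the Catsperg1 promoter, in the same order of height. The upstream peak, at chr7:29214890-29215227, had a score of 10.2 (rank 3587 of 21274), and its 338 bp lay wholly within the upstream peak of replicate 1. Relative to the coding TSS it ran from −1194 to −857, so that it crossed the −1000 limit of the promoter, with its centre at −1025. The other, at chr7:29213728-29213883, scored 5.06 at rank 9094 and was 1 of 2417 peaks of the list with that score. That peak sat inside the gene, from +150 to +305, and overlapped the TSS peak of replicate 1 by 74 bp without reaching the TSS. The upstream site was thus called at the same place in both replicates, whereas at the TSS the calls overlapped in part and the replicate 2 call left out the TSS.

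Both of the Catsperg1 sites that replicate 1 called hold an X-box. The X-box was searched as the 14-base palindrome GTTGCCATGGCAAC on both strands, allowing 3 mismatches, and its core half-site GTTGCC was searched exactly on both strands (the core lies within the palindrome). In the substitutions below, positions are counted from 1 at its 5′ end on the strand of the gene, with the base of the palindrome first. The TSS-proximal site, GTTACCATGGAAAC, differs from the palindrome by G4A and C11A and is centred at −11. The upstream site, GTTTCCATGGTAAC, differs by G4T and C11T and is centred at −975. The upstream site is the exact reverse complement of the TSS-proximal site, so the same 14 bases occur at both places in opposite orientation. The substitutions therefore fall at the same pair of positions, and they leave the central bases and both ends of the repeat intact.

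The bases upstream of the first Catsperg1 TSS (248 bases, chr7:29214036-29214283) and those in the centre of the shared upstream peak (300 bases, chr7:29214909-29215208) are shown because they hold these sites. Both are from the GRCm38 reference genome, minus strand, 5′ to 3′, with the X-box in capitals.
Catsperg1 promoter: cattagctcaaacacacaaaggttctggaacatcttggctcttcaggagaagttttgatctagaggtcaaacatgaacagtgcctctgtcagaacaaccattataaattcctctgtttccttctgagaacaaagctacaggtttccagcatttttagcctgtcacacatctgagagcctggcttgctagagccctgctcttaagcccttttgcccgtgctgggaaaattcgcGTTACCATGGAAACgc
Catsperg1 upstream peak: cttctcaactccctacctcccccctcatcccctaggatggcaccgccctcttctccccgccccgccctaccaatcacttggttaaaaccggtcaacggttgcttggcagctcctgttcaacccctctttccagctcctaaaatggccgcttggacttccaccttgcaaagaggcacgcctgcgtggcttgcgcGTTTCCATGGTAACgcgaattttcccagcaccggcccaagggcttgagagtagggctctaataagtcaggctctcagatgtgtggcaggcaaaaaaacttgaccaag

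The bases around the X-boxes are likewise near copies of each other in opposite orientation. The stretch from −100 to +210 aligned with the inverted stretch from −1197 to −887 in 292 of 312 alignment columns (93.6%). The X-boxes are thus part of an inverted repeat whose arms lie under the TSS peak and the upstream peak. The upstream flank of Catsperg2 was searched in the same way, beyond 500 bp and up to 2000 bp before its TSS, and gave no comparable copy, the best alignment being 15 of 17 columns.

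The upstream site was in the part of each peak that both replicates shared. It lay 51 bp from the centre of the replicate 1 peak and 50 bp from that of the replicate 2 peak, on opposite sides. The TSS-proximal site lay 18 bp from the centre of the replicate 1 TSS peak. It was outside the replicate 2 peak in the first part of the gene, whose best match had 5 mismatches. Peaks with an X-box of at most 2 mismatches made up 15.8% of the replicate 1 list, 17.9% of the replicate 2 list and 56.4% of the combined list. With at most 3 mismatches, the shares were 26.6%, 27.0% and 76.7%.

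**Figure D1:**
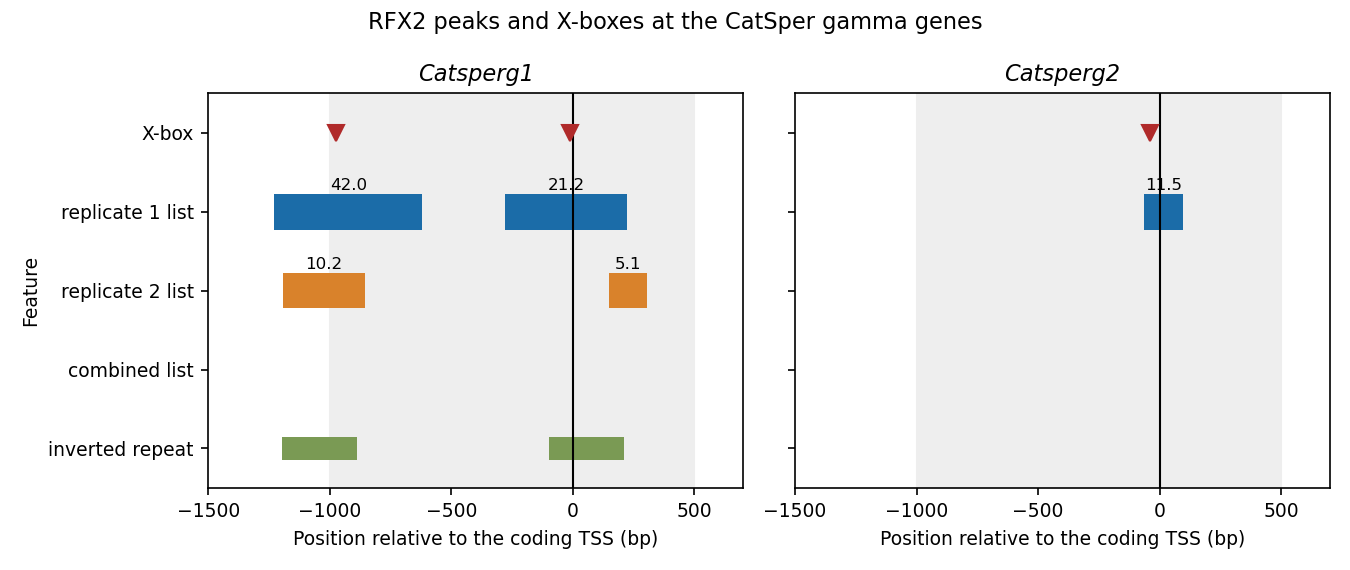
RFX2 peaks at the promoters of Catsperg1 (left) and Catsperg2 (right), by distance from the 5′-most coding TSS in bp (horizontal axis), with 1 row for each peak list, 1 for X-boxes of at most 2 mismatches (triangles) and 1 for the arms of the inverted repeat. Numbers above bars are peak scores, the grey area is −1000 to +500 around the coding TSS, and both replicates have a bar over the X-box at −975 of Catsperg1 while the combined list has none at either gene.

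The upstream peak of Catsperg1 was missing from the combined list although peaks of similar score in replicate 1 were mostly in it. Of the 400 replicate 1 peaks nearest to it in rank (200 on each side), 86.8% met a combined peak and 97.0% met a replicate 2 peak. Around its replicate 2 counterpart, 20.8% of the 400 nearest peaks met a combined peak and 94.8% met a replicate 1 peak. The Catsperg1 site thus ranked where most peaks entered the combined list in replicate 1 and where most did not in replicate 2. The reason for its absence was not tested. Around the TSS peak of replicate 1, with a score of 21.2, 77.0% of the nearest 400 peaks met a replicate 2 peak and 1.5% a combined peak. For the replicate 2 peak just inside the gene, with a score of 5.06, 15.0% met a replicate 1 peak and 1.2% a combined peak. Since 2417 peaks share that score, neighbours of equal score were taken in order of position.

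Measured against other bound promoters, Catsperg1 stood above the middle in replicate 1 and below it in replicate 2. Its best promoter score took place 960 among the 3066 genes with a promoter peak in replicate 1, where the median of the best scores was 17.4. In replicate 2, it took place 1433 among 2474 genes, with a median of 13.4.

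Catsperg2 (ENSMUSG00000049123.10, chr7:29697219-29727032, minus strand) is a close copy of Catsperg1. Their sequences within 500 bp of each coding TSS, on either side, aligned in 912 of 982 columns (92.9%). The alignment ran from −454 to +500 of Catsperg1 and met the ends of the compared sequences. These stopped 500 bp from each TSS, so the comparison could not reach the upstream peak of Catsperg1. Whether the similarity between the genes continues further upstream was not examined. A replicate 1 peak of 161 bp at chr7:29726919-29727079 covered the TSS of Catsperg2 with a score of 11.5, rank 7160 of 39825. This peak also holds an X-box with 2 mismatches, centred at −41 relative to the coding TSS. Replicate 2 had no peak at Catsperg2 and its nearest was 89.4 kb away, in the promoter of Zfp790. Of the 400 replicate 1 peaks nearest in rank to the Catsperg2 peak, 36.8% met a replicate 2 peak and 0 met a combined peak.

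The gamma genes are near copies of each other, and the authors kept only reads with a single place in the genome. How much sequence could receive such reads was gauged with words of 46 bases, the length given for some of the study's RNA libraries, since that of the ChIP reads is not given in the sources used here. Of the words in the promoter around the coding TSS, 75.5% occurred once in the assembled chromosomes for Catsperg1 and 63.6% for Catsperg2, against 86.7% to 100% for the other 6 CatSper genes. In the 300 bases around each X-box, the shares of unique words were 63.9% at the Catsperg1 TSS, 94.5% at the upstream Catsperg1 site and 68.2% at Catsperg2. In the stretch that both replicates called at the Catsperg1 TSS peak, all 29 words were unique. Only exact copies were counted, while the aligner also accepts mismatches, which would lower the shares, and longer reads would raise them. The part of read uniqueness in the peak heights was not tested.

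The combined peak nearest to Catsperg1 lay beyond the other end of the gene. It spanned chr7:29180313-29181276, with a −log10 p of 122 (rank 732 of 2726), a fold enrichment of 28.4 and a summit at position 29180780, and lay in the promoter of Psmd8, which encodes a subunit of the proteasome lid. Replicate 1 scored 68.0 there and replicate 2 scored 37.7. An X-box with 3 mismatches (T3G, C11T and A12G) lay 34 bp from the summit, and 76.7% of all combined peaks held a match of at most 3. The peak was 8.92 kb from an internal TSS of Catsperg1 but 33253 bp, summit to TSS, from the coding one, and it is the single reason why Catsperg1 counts as having a combined peak within 10 kb.

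Catsperb and Catsperd, for the beta and delta subunits, had no promoter peak in any list. Catsperb (chr12:101404653-101626009, plus strand) is 221 kb long and held 1 weak intronic peak in each replicate, at different places. That of replicate 1, at chr12:101410905-101411064, scored 4.47 and lay 6.15 kb from a TSS, and that of replicate 2, at chr12:101610476-101610656, scored 4.14 and lay 95.4 kb from one. The replicate 1 peak holds an X-box with 3 mismatches (G4A, G9A and G10C), while the best match in the replicate 2 peak has 7. A match of at most 3 mismatches was held by 26.6% of all replicate 1 peaks. The nearest combined peak was 509 kb away.

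For Catsperd (chr17:56628143-56664456, plus strand), all 3 lists pointed to the same nearest peak, in the promoter of the neighbouring gene 2410015M20Rik. It lay 17.5 kb from Catsperd in replicate 1 and in the combined list and 18.0 kb in replicate 2. Its score was 55.8 in replicate 1 and 24.2 in replicate 2, and in the combined list its −log10 p was 74.9, with 10.8-fold enrichment (rank 1532). It was assigned to the neighbour by position, and the lists hold no information on which gene it acts on.

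None of the 4 pore genes had a promoter peak in any list. Catsper1 (chr19:5335741-5344280, plus strand) held 1 intronic peak in replicate 1, at chr19:5337938-5338097, with a score of 2.34. It ranked 39308 of 39825, so that 98.7% of the list scored higher, and it was absent from the other lists. In replicate 2 and in the combined list, the nearest peak lay in an exon of Gal3st3, 27.9 kb and 27.7 kb away, with a fold enrichment of 9.55 in the combined list.

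Catsper3 (chr13:55784568-55808998, plus strand) held 2 intronic peaks in replicate 1 and none in replicate 2. The peak at chr13:55792360-55792619 scored 4.47, the median of that list. The peak at chr13:55795771-55796124, 11.2 kb from a TSS, scored 7.27 and holds an X-box with 3 mismatches (G4T, C11A and A12T), 20 bp from its centre. Of the 400 replicate 1 peaks around it in rank, 9.0% met a replicate 2 peak. With 1474 peaks at its score, those of equal score were taken in order of position. Over the whole replicate 1 list, 26.6% of peaks held an X-box of at most 3 mismatches.

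Catsper2 and Catsper4 held no peak in promoter or gene body in any list. For Catsper2 (chr2:121392631-121413792, minus strand), the nearest peak of replicate 1 and of the combined list was 107 kb away, in the promoter of Map1a, which encodes a microtubule-associated protein. That peak was among the highest, at rank 90 in replicate 1 with a score of 213 and rank 84 in the combined list with a −log10 p of 268. For Catsper4 (chr4:134211970-134227383, minus strand), the nearest combined peak was 124 kb away, in the promoter of Ubxn11, with a fold enrichment of 13.8.

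Over the 8 genes, the nearest peak was at a median of 6.97 kb in replicate 1, 83.1 kb in replicate 2 and 114 kb in the combined list. The medians over all protein-coding genes with a peak on their chromosome were 16.8, 28.4 and 204 kb. The CatSper median was thus below that of all genes in replicate 1 and in the combined list and above it in replicate 2. No peak lay within 10 kb of a TSS for 3 of the 8 genes in replicate 1 (61.3% of all genes), 7 in replicate 2 (70.6%) and 7 in the combined list (91.1%). Promoter and gene body taken as a whole held a peak for 5 genes in replicate 1 (36.3% of all genes), 2 in replicate 2 (28.9%) and 0 in the combined list (8.26%).

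**Figure D2:**
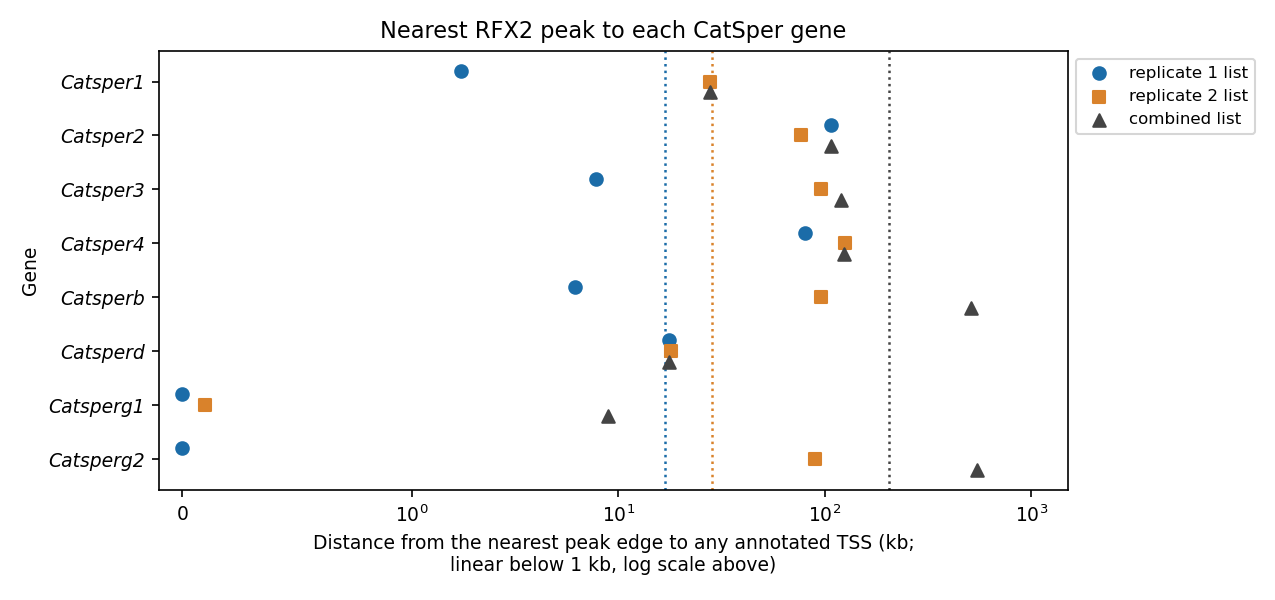
Distance from each CatSper gene's annotated TSSs to the nearest RFX2 peak of each list, in kb (horizontal axis, linear below 1 kb and logarithmic above), with 1 point per list and gene. Dotted lines mark the median over all protein-coding genes in each list, and Catsperg1 is the one gene with a point below 1 kb in both replicates.

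The reference promoters of the CatSper genes were compared for X-boxes independently of the peaks. In the RefSeq table for GRCm38.p6, 6 of the 8 genes had a promoter of 250 bases before and 50 after the TSS, and Catsper1 and Catsperg2 had none. Catsperg1 was the only one of the 6 with an X-box of at most 3 mismatches, a match held by 3.37% of 32851 promoters of that length. With at most 2 mismatches, as at Catsperg1, the share was 1.2%. None of the 6 held the exact half-site, which 12.5% of the promoters did. These matches describe letters in a window and not occupancy.

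In the promoter as defined by annotated TSSs, for which all 8 genes could be examined, the best match had 2 mismatches in Catsperg1 and Catsperg2, 4 in Catsperd and 5 in the other 5 genes. The genes with a promoter peak in replicate 1 were therefore those with an X-box. Over all protein-coding genes, 503 had a match of at most 2 mismatches in the promoter around the 5′-most coding TSS. Of these, 80.9% had a promoter peak in replicate 1, 73.6% in both replicates and 56.9% in the combined list. Of the 12823 genes whose best match had 5 or more mismatches, 9.26% had a promoter peak in replicate 1, 4.82% in both replicates and 2.3% in the combined list. Catsperg2 belonged to the first group without a peak in both replicates, and Catsperg1 to the first group without a combined peak.

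**Figure D3:**
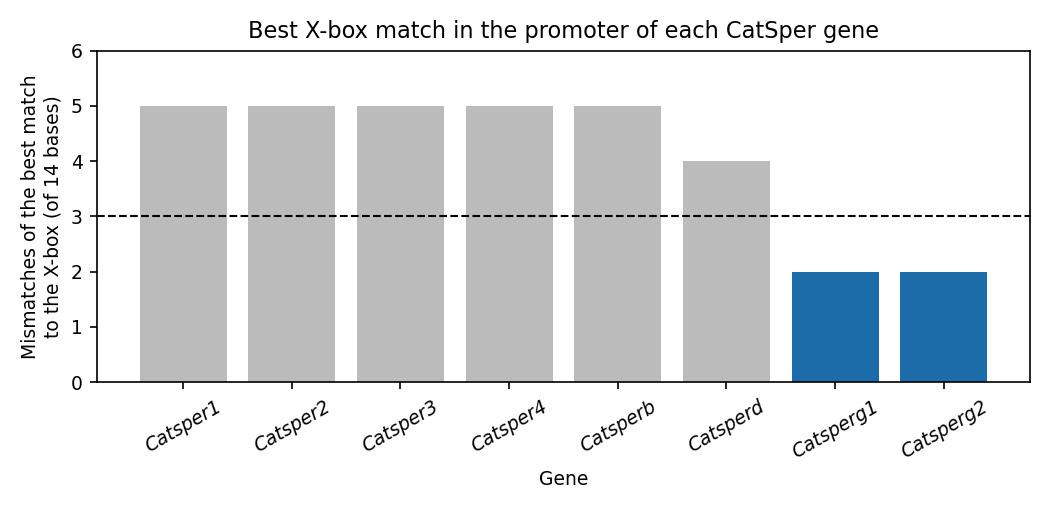
Mismatches between the X-box palindrome and its best match in the promoter of each CatSper gene (vertical axis, of 14 bases), within 1000 bp upstream to 500 bp downstream of any annotated TSS. Blue bars are genes with a promoter peak in replicate 1, grey bars genes with none, and the dashed line is the limit of 3 mismatches, below which only Catsperg1 and Catsperg2 lie with 2 each.

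Other genes of the CatSper complex and of sperm ion transport were counted from a list of 18 names, of which 17 were annotated. A promoter peak was found for 5 of the 17 in replicate 1 (29.4%, against 14.0% of all protein-coding genes). Abhd2, Catspere2 and Kcnu1 had one in replicate 2 and in both replicates (3 genes, 17.6%, against 11.3% and 9.05% of all genes). In the combined list there were 2, Abhd2 and Kcnu1 (11.8%, against 5.26%). The remaining replicate 1 peaks, at Atp1a4, which encodes the sperm sodium pump subunit, and Tmem262, were low, with scores of 4.33 and 4.54.

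Abhd2 encodes the progesterone-activated lipid hydrolase that relieves inhibition of CatSper in human sperm. Its promoter peak was the highest of this list in each case, with a score of 165 in replicate 1 (rank 223) and 52.0 in replicate 2 (rank 486). In the combined list it reached a −log10 p of 205, with a fold enrichment of 22.8 and its summit at −26 relative to the coding TSS. Kcnu1 encodes SLO3, the potassium channel of sperm. Its scores were 33.2 and 21.7 in replicates 1 and 2. Its combined peak reached 54.6 in −log10 p (rank 2183 of 2726) and was 16.7-fold enriched, with the summit at −17. The best X-box matches in these peaks had 5 mismatches at Abhd2 and 4 at Kcnu1, so neither reached the limit of 3.

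Catspere2, for an epsilon subunit of CatSper, had peaks with scores of 22.5 and 8.10 in replicates 1 and 2. They lay 0.19 and 0.208 kb from an annotated TSS but their centres were at −8411 and −8347 relative to the coding TSS, and none was in the combined list. Its best X-box matches had 5 and 6 mismatches. The gene Catspere1 had no peak in its promoter in any list, and the nearest of replicate 1 was 37.5 kb away. For Catsperz, which encodes the zeta subunit, the nearest peak of each list lay in the promoter of Esrra, about 4 kb from its TSS, with scores of 111 and 45.2 in replicates 1 and 2.

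Inside genes, 2 further members of that list were bound in all 3 lists. Lrrc52 encodes the auxiliary subunit of SLO3. An intronic peak 2.19 kb from its TSS scored 31.0 in replicate 1 and a peak 2.34 kb from its TSS scored 16.4 in replicate 2. In the combined list, the peak had a fold enrichment of 14.8 but ranked low, with a −log10 p of 46.6 (rank 2550 of 2726). It holds an X-box with 1 mismatch. Slc9c1 encodes the sperm sodium-proton exchanger, needed for sperm motility. A peak inside the gene, at chr16:45593273-45594168 in the combined list, with its summit 58510 bp downstream of the coding TSS and its edge 53.6 kb from the nearest annotated TSS, reached 81.8 in −log10 p and was 21.3-fold enriched, with scores of 68.8 and 10.3 in replicates 1 and 2. It holds an X-box with 0 mismatches. Peaks in promoter or gene body were found for 10 of the 17 genes in replicate 1 (36.3% of all genes), 7 in replicate 2 (28.9%) and 4 in the combined list (8.26%), the last being Abhd2, Kcnu1, Lrrc52 and Slc9c1.

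Beside these lists, a core set of intraflagellar transport B genes, which encode the particle that carries cargo along growing cilia and flagella, had a promoter peak in 9 of 11 annotated members in replicate 1 (81.8%) and in 8 in replicate 2, in both and in the combined list (72.7%). Of 15 genes of late haploid germ cells, such as those for protamines, 1 had a promoter peak in each replicate (6.67%) and 0 in the combined list. The CatSper shares of 25.0%, 12.5% and 0 of 8 lay between these lists in the replicates and equalled the late haploid genes in the combined list. Of all protein-coding genes, 14.0% had a promoter peak in replicate 1, 11.3% in replicate 2 and 5.26% in the combined list. In replicate 2, the CatSper and late haploid shares each rest on 1 gene, so their order there reflects the sizes of the lists. No test of these differences was made.

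**Figure D4:**
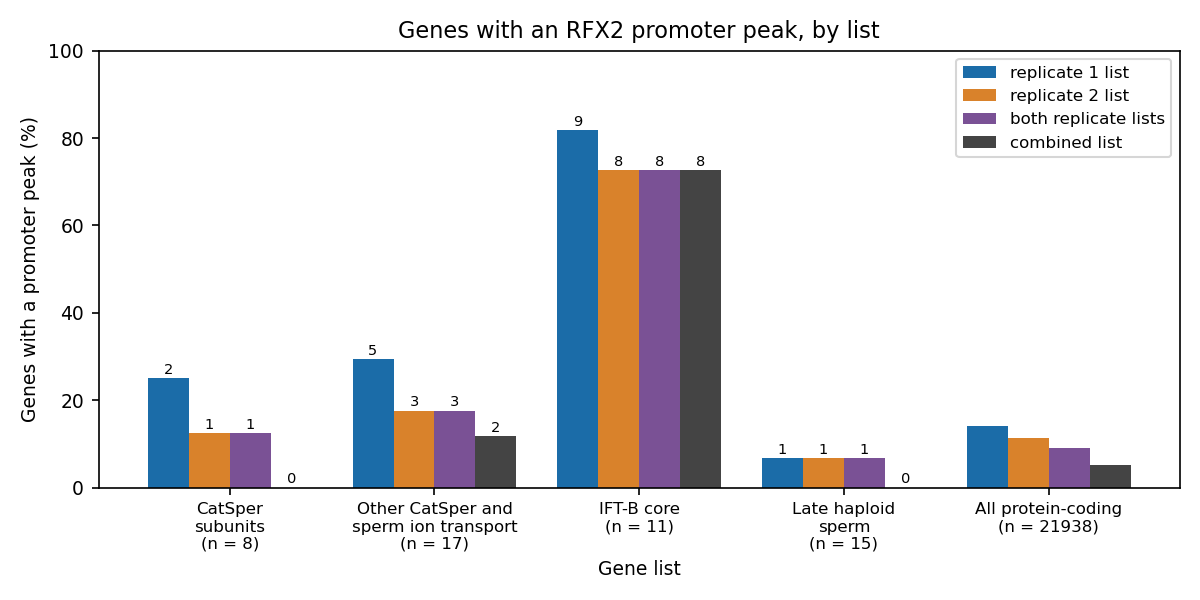
Share of genes with an RFX2 promoter peak in percent (vertical axis), for the CatSper subunit genes, 3 other gene lists and all protein-coding genes, with 1 bar for each replicate list, for both replicates and for the combined list. Numbers above bars are counts of genes, and the CatSper bars stand at 2, 1, 1 and 0 of 8 genes.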

How the data were processed

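RFX2 ChIP-seq and input libraries were made by the authors from wild type testis. According to the study's methods and processing notes, reads were mapped to GRCm38 (Ensembl annotation) with Bowtie 0.12.7, reads with several places in the genome were discarded, and peaks were called with MACS2 2.0.10.20130520 against input. Discarding such reads can remove or lower peaks in copied sequence. The methods also describe a set of reproducible peaks, kept by a cut on the irreproducible discovery rate between the replicates. Replicate 2 was sequenced again, and reads of human origin were removed from that run. The deposited lists of the replicates give a −log10 value per peak (p or q not stated). The deposited combined list, attached to replicate 2, gives the fold enrichment (a ratio), −log10 p, −log10 q, a score made from −log10 p and the summit. Read depths are unknown, and age labels differ from the study's text.

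Peaks were ranked by score within a list, ties sharing the best rank. Where peaks of similar rank were compared, those of equal score were taken in order of chromosome and position. Genes and TSSs were those of GENCODE mouse release 21. A peak that shared 1 bp or more with a promoter was counted in it, and counts were checked with bedtools 2.31.1. Promoters were read from the GRCm38.p6 genome and from RefSeq, whose 13164 promoters on the chromosomes of the CatSper genes were identical to that genome. Alignments were made with Biopython 1.88. The search steps were tested on simulated data. All 8 genes were described, with the pathway genes and the nearest gene of a peak in another promoter. Comparisons with peaks of similar rank, peaks inside genes, word uniqueness and the inverted repeat were added after the peaks were seen. The CatSper genes, the gene lists and the X-box were chosen with earlier results of these data known.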

Additional observations from a re-analysis of the deposited data

How the results depend on the processing

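Of 40 alternative counts, 31 stayed within 1.5 times the count reported and 9 did not, and none concerns a test. With a narrow promoter (−500 to +50), 2 CatSper genes still had a promoter peak in replicate 1. In replicate 2 and in both replicates, the number of CatSper genes with a promoter peak fell from 1 to 0. With 1 replicate list alone in place of both, it ranged from 1 to 2, the second gene being Catsperg2 in replicate 1. With that range, the other CatSper complex and ion transport genes counted from 3 to 5. The number with a peak near a TSS went from 5 within 10 kb to 3 within 5 kb in replicate 1, from 1 within 10 kb to 3 within 50 kb in replicate 2, and from 1 to 0 within 5 kb and to 3 within 50 kb in the combined list. Searching 1000 bp upstream to 500 bp downstream of any TSS raised the genes with an X-box from 1 to 2. The wide promoter window, coding TSSs only, peak centres, the higher-scoring part of each list, lists of equal length and peaks that must overlap gave counts within 1.5 times. No paired analysis was possible because the inputs have no peak list and no result comes from a test. Peak lists hold no read counts, so weak binding below the callers' thresholds was not detectable.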
